A study of Mus musculus with 18 samples.

Results

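The genes described are the 4 ID proteins (Id1, Id2, Id3 and Id4) and 2 further genes that respond to bone morphogenetic proteins (BMPs), Smad6 and Atoh8. They were taken by gene symbol, and 6 of the 21937 genes in the deposited table are described across all 18 libraries. The choice was made with earlier results of these data known. Counts of these genes beside shares of all genes are therefore descriptions, not independent tests. RNA-seq had been run on NIH3T3, a mouse embryonic fibroblast line, after a 2 h pulse of 100 nM dexamethasone, a synthetic glucocorticoid used to set the clocks of cultured cells to a common phase. Cells were collected when the pulse was replaced by normal medium (0 h) and every 4 h until 32 h, with 2 libraries at each of the 9 times. All 9 groups, 0 h included, had received the pulse, no BMP was named in the labels, and an unpulsed group is not analysed here. The labels give no genotype change. Nothing in them says that the 2 libraries of a time came from different cultures, so p-values measure the spread between these libraries, which may be technical.

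BMPs are secreted ligands of the TGF-beta family that bind paired type I and type II receptor kinases at the cell surface. The receptors phosphorylate SMAD1, SMAD5 and SMAD9, which enter the nucleus with SMAD4 and bind regulatory DNA of genes such as Id1, Id2, Id3, Id4, Smad6 and Atoh8. ID proteins have a helix-loop-helix domain but no basic region, so they hold the E proteins (Tcf3, Tcf4, Tcf12) in pairs that cannot bind DNA; in fibroblasts they are also known as serum-induced genes linked to proliferation.

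Promoter windows show where letters known from SMAD binding stand next to these genes. RefSeq windows on GRCm38.p6, from 250 bases before to 50 bases after the transcription start, were found for 5 of the 6 genes (Id2, Id3, Id4, Smad6 and Atoh8). Of 7 sequences searched on both strands, the SMAD palindrome GTCTAGAC was in the Smad6 window, its first base 4 bases before the start, and in 0.213% of all 32851 promoter windows (0.173% of the 8693 windows of genes tested here). The short SMAD box CAGAC was in the Id3 window, 167 bases before the start and again 68 bases before it on the other strand; 49.6% of all windows and 47.1% of those of tested genes hold it. The GC-rich SMAD element core GGCGCC was in the Id2 window (231 bases before the start) and in the Id4 window (148 bases before), against 11.9% of all windows and 21.4% of those of tested genes. The E-box CACGTG, the letters that CLOCK and BMAL1 are known to bind, was in the Atoh8 window 230 bases before the start and in 7.15% of all windows (10.4% of those of tested genes). The general E-box CANNTG, of which CACGTG is one form, was in the Id2, Smad6 and Atoh8 windows and in 72.3% of all (62.3% for tested genes). The cyclic AMP response element TGACGTCA was in 0 of the 5 windows and in 1.79% of all (3.26% for tested genes), and the glucocorticoid receptor sequence AGAACA, which is only 1 arm of the paired element the receptor binds, was in the Smad6 window, 76 bases before the start, and in 19.0% of all (12.0% for tested genes). Apart from CACGTG within CANNTG, no searched sequence overlapped another in these 5 windows. Below are 4 windows, each 5′ to 3′, chosen because each shows a different arrangement of these letters. Capitals mark GGCGCC in Id2 (chr12:25096043-25096342, minus strand), CAGAC on either strand in Id3 (chr4:136143572-136143871, plus strand), GTCTAGAC in Smad6 (chr9:64022010-64022309, minus strand) and CACGTG in Atoh8 (chr6:72235528-72235827, minus strand). They are matches of letters only, and binding was not measured.
Id2: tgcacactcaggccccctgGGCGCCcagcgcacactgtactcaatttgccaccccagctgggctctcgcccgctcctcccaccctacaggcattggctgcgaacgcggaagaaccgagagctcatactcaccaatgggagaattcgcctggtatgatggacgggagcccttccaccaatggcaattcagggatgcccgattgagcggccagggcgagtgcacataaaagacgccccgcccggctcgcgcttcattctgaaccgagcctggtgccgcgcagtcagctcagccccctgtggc
Id3: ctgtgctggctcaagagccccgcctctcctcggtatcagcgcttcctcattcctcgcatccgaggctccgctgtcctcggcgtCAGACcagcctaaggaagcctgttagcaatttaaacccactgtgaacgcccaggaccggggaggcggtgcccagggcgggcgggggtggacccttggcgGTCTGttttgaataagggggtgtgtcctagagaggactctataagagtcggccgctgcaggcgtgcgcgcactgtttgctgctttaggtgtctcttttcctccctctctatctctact
Smad6: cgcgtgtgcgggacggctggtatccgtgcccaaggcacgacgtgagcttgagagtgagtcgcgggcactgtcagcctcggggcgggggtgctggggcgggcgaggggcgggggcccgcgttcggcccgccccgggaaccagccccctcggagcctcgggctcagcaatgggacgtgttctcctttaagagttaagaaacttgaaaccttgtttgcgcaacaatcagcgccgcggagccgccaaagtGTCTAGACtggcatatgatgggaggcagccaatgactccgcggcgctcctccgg
Atoh8: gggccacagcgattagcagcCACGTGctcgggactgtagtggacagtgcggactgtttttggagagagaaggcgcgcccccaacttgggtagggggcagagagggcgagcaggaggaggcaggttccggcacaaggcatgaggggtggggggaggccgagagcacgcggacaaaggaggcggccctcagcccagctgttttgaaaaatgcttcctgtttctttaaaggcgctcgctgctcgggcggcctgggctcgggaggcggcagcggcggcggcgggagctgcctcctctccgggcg

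Values below are normalized reads, the reads of a gene divided by 1 factor per library. Where libraries are said to overlap or not, 2 values are set against 2. That is a description only, as the share of all genes without overlap was not counted. Gene reads per library numbered between 25.4 M and 38.9 M, with no replicate 2 library above 32.0 M and no replicate 1 library below 31.9 M. The 7 fibroblast markers examined, such as Col1a1 and Vim, were all present, and their summed normalized reads were 825522 to 829150 at 24 h and 1121490 to 1189240 at 0 h. The 4 epithelial markers summed to 116 to 157 at 24 h and 831 to 1121 at 0 h, nearly all of it Krt8, while Epcam and Cdh1 did not pass 3.86 in any library. The 3 leukocyte markers summed to 240 to 284 at 24 h and 170 to 220.4 at 0 h. Over all libraries Cd68 ran from 154 to 273 and made up most of that sum, while Ptprc was at most 4.87. Over all libraries the 4 endothelial, 3 muscle and 3 neural markers summed to 37.4 to 101, 26.4 to 87.0 and 245 to 712, with Kdr and Myod1 listed at 0. The part of these sums in the results below was not tested. In bulk RNA, fewer cells of a type and less RNA per cell cannot be told apart.

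All 6 genes were higher late in the course than at its start. At the time of its highest mean, each gene was higher than at 0 h by 4.29-fold (Atoh8), 3.87-fold (Id3), 3.51-fold (Id2), 2.82-fold (Id4), 2.12-fold (Smad6) and 1.62-fold (Id1), and all 6 were still called higher at 32 h. These folds come from the log2 changes of the limma fit below and are not ratios of mean reads. In the limma fit (log2 of the normalized reads + 1, Benjamini-Hochberg adjustment over the 12393 genes with a mean of at least 10), the moderated F test over the 9 times passed 0.05 for 6 of 6 genes, where 52.0% of all tested genes passed. That fit held no term for replicate, so a difference between the 2 replicate series stayed in its error. Against 0 h, 2 of the 6 genes were higher at 4 h (11.0% of all genes), 3 at 8 h (17.3%) and 4 at 12 h (18.1%). From 16 h on all 6 were higher at each time, where 18.7%, 19.6%, 18.6%, 19.8% and 20.5% of all genes were higher at 16, 20, 24, 28 and 32 h. None was called lower in this fit, though with replicate as a block Smad6 was called lower at 4 h (below). The median log2 change of the 6 was 0.30, 0.85, 1.13, 1.54, 1.62, 1.51, 1.44 and 1.61 from 4 h to 32 h, while that of all tested genes lay between -0.00427 and 0.0128. With libraries scaled to equal totals instead, that median of all genes moved by 0.03 at 4 h and by 0.14 to 0.21 at later times, and among all called genes the higher share was 61.4% to 81.3%, against 49.8% to 51.2% in the deposited scaling. The 6 genes then gave 42 of 48 calls against 0 h, all higher, against 39 of 48, and the share of all tested genes called higher was 13.6% at 4 h and 32.4% to 45.3% from 8 h to 32 h.

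**Figure D1:**
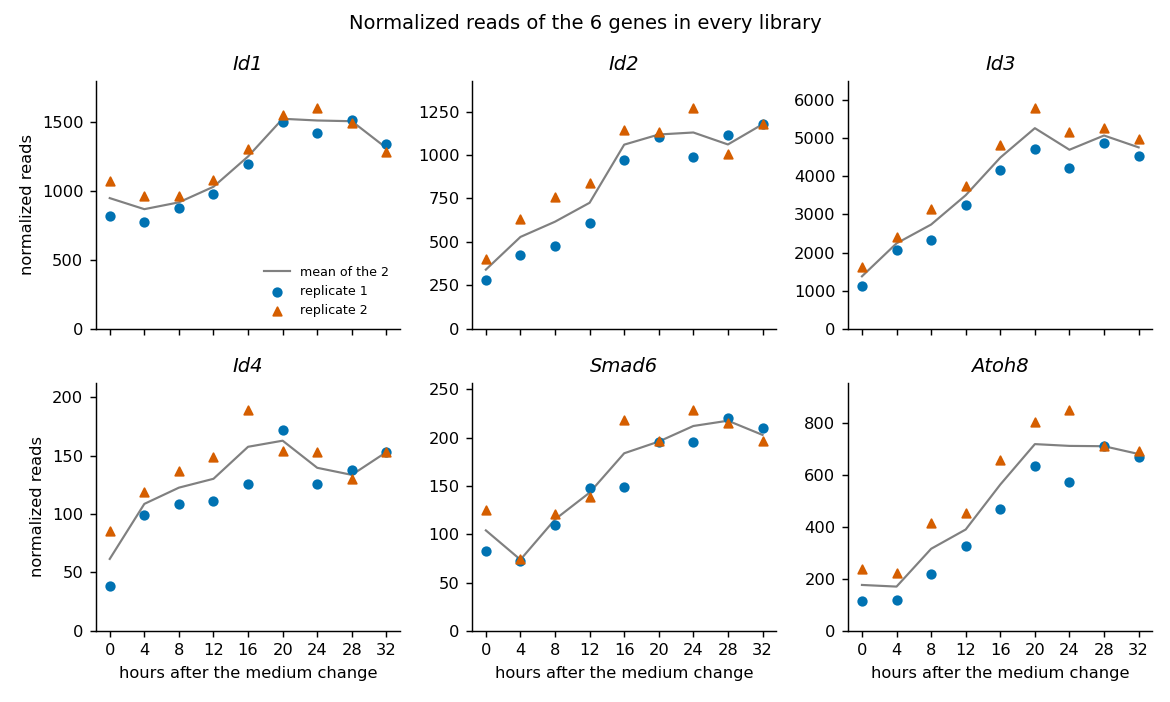
Normalized reads (linear axes from 0) of each of the 6 genes in every library against hours after the medium change; points are single libraries, by replicate. Id2, Id3 and Id4 stood above both 0 h libraries at all 8 later times, Smad6 and Atoh8 from 12 h and Id1 from 16 h. The share of all genes that did so was not counted.

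Id3 had the most reads of the ID genes and was already called higher at 4 h. Replicate 1 gave 1122, 2069.8, 2324, 3256, 4161, 4724, 4220.2, 4872 and 4534 normalized reads of Id3 at 0, 4, 8, 12, 16, 20, 24, 28 and 32 h. Replicate 2 gave 1629.7, 2412, 3145, 3753, 4822, 5805, 5175, 5271 and 4986 at the same times. Both libraries of each of the 8 later times lay above both 0 h libraries, and the highest mean, 5264, was at 20 h. The log2 change from 0 h was 0.72 ± 0.18 at 4 h (adjusted p = 0.0105, limma), 1.37 ± 0.18 at 12 h (4.02e-05) and 1.95 ± 0.18 at 20 h (1.03e-06), the last a 3.87-fold difference. It was still 1.81 at 32 h (adjusted p = 2.22e-06). The 4 h call was lost without 0 h replicate 1 (adjusted p = 0.0950) or without 4 h replicate 2 (0.0722).

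Id2, like Id3 known for holding back differentiation, rose over the same hours with fewer reads. Its normalized reads were 281, 422, 475, 610.1, 973, 1101, 986, 1114 and 1178 from 0 h to 32 h in replicate 1. In replicate 2 they were 399.5, 635, 757, 840.4, 1146, 1135, 1273, 1008 and 1176. Every later library lay above the higher 0 h library, 399.5 in replicate 2. At 4 h the log2 change of Id2 was 0.63 ± 0.24, with an adjusted p of 0.0725 in limma that was 0.00167 with replicate as a block, 0.0390 without 4 h replicate 1 and 0.0442 or 0.0443 without either 8 h library. At 8 h it was 0.84 ± 0.24 (adjusted p = 0.0137), a call lost without 0 h replicate 1 (0.124) or 8 h replicate 2 (0.153). The change reached 1.81 ± 0.24 at 32 h, its highest mean (1177 normalized reads, 3.51-fold, adjusted p = 3.18e-05).

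Id4, known for its part in neural and bone development, had the fewest reads of the ID genes, 42 to 189 raw reads per library. Its values in replicate 1 were 37.9, 98.8, 108, 111, 126, 172, 126, 137 and 153 normalized reads over the 9 times. Replicate 2 held 85.1, 118, 137, 149, 189, 154, 153, 129.6 and 153. The 0 h pair was far apart (37.9 and 85.1), yet all 16 later libraries lay above both. Id4 was 2.82-fold higher at 20 h than at 0 h (log2 1.50 ± 0.29, adjusted p = 0.000996, limma), and the F test over times gave an adjusted p of 0.0131. With replicate as a block, the F test gave 9.73e-05. The adjusted p at 4, 8, 12 and 28 h was then 0.00211, 0.000301, 0.000129 and 6.98e-05. The losses that follow are from fits without the block. Without 0 h replicate 1, the lower of the pair, the F test's adjusted p was 0.0767, and the calls at 4, 8, 12 and 28 h were lost (adjusted p = 0.347, 0.138, 0.0886 and 0.0652). The 4 h call (log2 0.92, adjusted p = 0.0384) was also lost without 4 h replicate 1 (0.0842), 4 h replicate 2 (0.157) or either 32 h library (0.0505), without the filter (0.0620) or the variance trend (0.0613), and by edgeR (0.0554). Leaving out 8 h replicate 2 ended the 8 h call (0.0766) and leaving out 12 h replicate 2 the 12 h call (0.0608).

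Id1, the classic early BMP target, moved least of the 6. Over the course replicate 1 had 822, 772, 875, 982, 1197, 1499, 1418, 1518 and 1345 normalized reads of Id1. For replicate 2 the values were 1075, 964, 961, 1080.2, 1305, 1549.8, 1606, 1496 and 1280.3. The libraries of 4, 8 and 12 h overlapped those of 0 h, and from 16 h on both libraries of each time lay above both at 0 h. The log2 change was -0.12, -0.04 and 0.13 at 4, 8 and 12 h (SE 0.12, limma adjusted p = 0.503, 0.844 and 0.428); the 12 h value passed with equal totals (0.0442). At 20 h Id1 was 1.62-fold higher than at 0 h (log2 0.70 ± 0.12, adjusted p = 0.000395), its highest mean at 1525. The calls at 16 h (0.41, adjusted p = 0.0158) and 32 h (0.48, 0.00562) were lost without 0 h replicate 1 (adjusted p = 0.205 and 0.0918). The 16 h call was also lost without 16 h replicate 2 (0.107).

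Smad6, the inhibitory SMAD that acts mainly on BMP type I receptors, had its lowest mean at 4 h and was called higher than at 0 h from 16 h on. Replicate 1 read 83.1, 72.7, 110.1, 148, 149, 195, 195, 220.3 and 209.7 normalized reads from 0 h to 32 h. Replicate 2 read 125, 74.7, 121, 138, 219, 197, 229, 215 and 196. Both 4 h libraries lay below both 0 h libraries, those of 8 h overlapped 0 h, and from 12 h on all lay above it. The 4 h difference was a log2 change of -0.46 ± 0.19 with an adjusted p of 0.0907 (limma), which was 0.0253 with replicate as a block and 0.0142 without 0 h replicate 1. Smad6 was then higher at 8 h than at 4 h by 0.64 ± 0.19 (1.56-fold, adjusted p = 0.0392). That call was lost in 14 of 28 alternatives, over all of which its adjusted p ran from 0.00511 to 0.186. They were no filter, no variance trend, edgeR (0.0618), DESeq2 (0.0508), leaving out any one library of 4 h or 8 h (0.0959 to 0.186) and leaving out any one of 20, 28 or 32 h (0.0522 to 0.0537). Against 0 h, the log2 change was 0.49 at 12 h (adjusted p = 0.0550) and 0.82 at 16 h (0.00312, but 0.0563 without 16 h replicate 2). The 12 h difference passed with the replicate block (0.0146), with equal totals (0.00879), and without 0 h replicate 2 (0.00876) or either 16 h library (0.0318 and 0.0323). The highest mean, 218 normalized reads, was at 28 h, where Smad6 was 2.12-fold higher than at 0 h in the limma fit (log2 1.09 ± 0.19, adjusted p = 0.000328).

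Atoh8, a basic helix-loop-helix factor of the atonal family, had the largest rise of the 6 and, averaged over the times, the largest log2 difference between replicates. In replicate 1 its normalized reads were 115, 118, 217, 327, 468, 633, 571, 710.1 and 667 at the 9 times. The second series ran 238, 221, 413, 451, 656, 801, 849.7, 708 and 692. The 4 h and 8 h libraries overlapped those of 0 h, where replicate 2 had 238 and replicate 1 115, and from 12 h on both lay above both. At 20 h Atoh8 was 4.29-fold higher than at 0 h (log2 2.10 ± 0.37, adjusted p = 0.000398, limma), with a mean of 717. The log2 change was -0.03 at 4 h (0.963) and 0.86 ± 0.37 at 8 h, with an adjusted p of 0.0850 that was 0.000663 with replicate as a block. That difference also passed with equal totals (0.0391) and without 0 h replicate 2 (0.0244) or 8 h replicate 1 (0.0322). The 12 h call (1.21, adjusted p = 0.0187) was lost without 0 h replicate 1 (0.202) or 12 h replicate 2 (0.120).

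**Figure D2:**
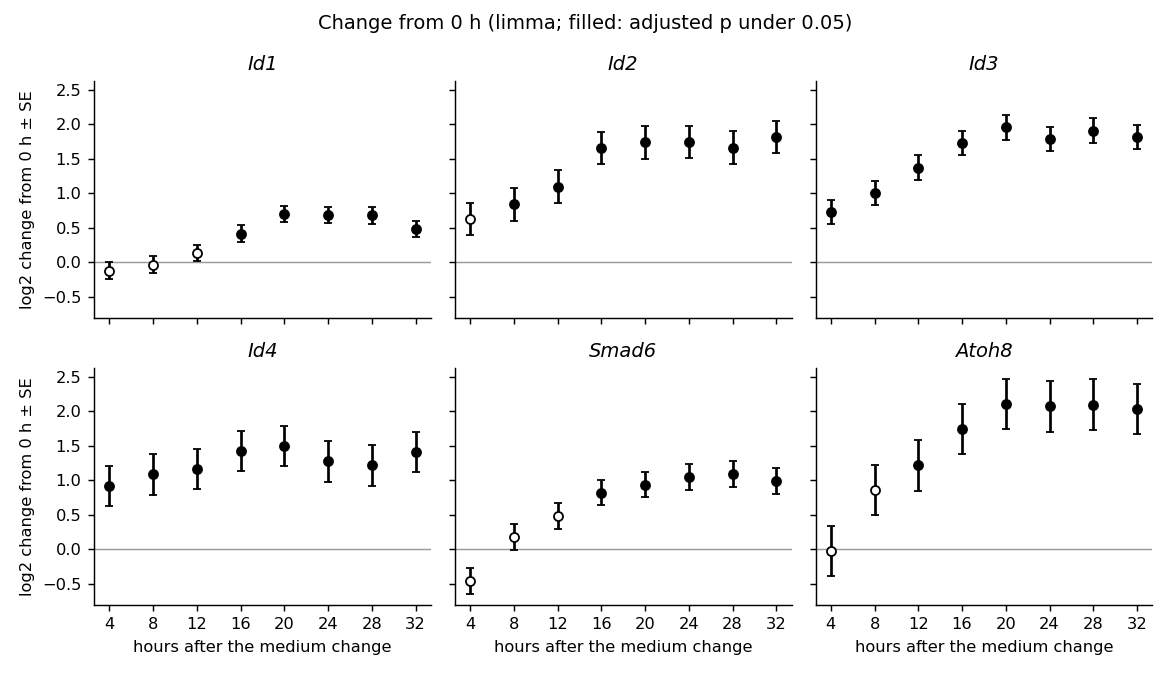
Log2 change of each gene from 0 h (vertical axis, ± SE of the limma fit) at the 8 later times; filled points have an adjusted p under 0.05. The 3 genes called by 8 h are Id2, Id3 and Id4, and all 6 are filled from 16 h to 32 h.

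Few steps between neighbouring times were called one by one. Of 48 such steps 3 passed in limma: Id3 and Id4 from 0 h to 4 h and Smad6 from 4 h to 8 h, where 21.5% and 11.3% of all tested genes passed. Over the 6 later steps together, 72 of 74358 tests of all genes passed (0.0968%), so few genes of any kind were called there. With replicate as a block 9 steps passed, and the share of all tested genes was then also larger, 37.6% at 4 h against 0 h, 24.6% at 8 h against 4 h and 0.937% over the 6 later steps together. These added Id2 at 4 h (above), Id3 at 8, 12 and 16 h against the time before (adjusted p = 0.0105, 0.00681 and 0.0195), Smad6 lower at 4 h, and Atoh8 at 8 h against 4 h (0.00125). The Id3 steps were log2 changes of 0.27, 0.37 and 0.36, and the Atoh8 step 0.88.

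The series was made to look for a daily rhythm, so levels were compared at matched hours of both days. All 6 genes were higher at 24 h than at 0 h (above). At 28 h against 4 h, 5 of the 6 were higher (20.6% of all tested genes were higher). Atoh8 had 710.1 and 708 normalized reads at 28 h and 118 and 221 at 4 h, a log2 difference of 2.12 ± 0.37 (adjusted p = 0.000367, limma). Smad6 had 220.3 and 215 at 28 h against 72.7 and 74.7 at 4 h, 2.93-fold (adjusted p = 1.76e-05). The pairs of libraries did not overlap for either gene. Id3, Id2 and Id1 differed by 1.18, 1.03 and 0.80 on the log2 scale, and Id4 by 0.30 ± 0.29, which did not pass (adjusted p = 0.438).

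At 32 h against 8 h the same count held, 5 of 6 higher, where 13.5% of all genes were higher. The log2 differences were 1.18 for Atoh8, 0.97 for Id2, 0.81 for Id3, 0.81 for Smad6 and 0.52 for Id1, with adjusted p from 0.00405 to 0.0272. Id4 differed by 0.33 ± 0.29 (adjusted p = 0.437). Without 8 h replicate 1 the calls of Id1, Id2, Id3 and Atoh8 were lost (adjusted p = 0.0612, 0.109, 0.0585 and 0.261). Atoh8 also lost its call without 32 h replicate 1 (0.0880) or 32 h replicate 2 (0.125) and with a single prior variance (0.0542).

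A cosine and sine of 24 h passed for 0 of the 6 genes in limma (0.371% of all genes passed), with adjusted p from 0.504 to 0.708. The unadjusted p ran from 0.209 to 0.470, so 0 were under 0.05, and edgeR and DESeq2 also called 0. A linear term fitted beside the cosine and sine was positive for 6 of 6, where 28.2% of all genes had a rising and 27.3% a falling term that passed. It was 0.08 log2 units per hour for Atoh8, 0.05 for Id3, 0.05 for Id2, 0.05 for Smad6 and 0.03 and 0.03 for Id4 and Id1, with adjusted p from 1.70e-07 (Id1) to 0.00402 (Id4). With that term in the model, the rhythm test passed for Id1 (adjusted p = 0.00702) and Smad6 (0.0489). The number of all tested genes that passed it then was 2108, against 46 without the term.

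Per length of exon, Id3 and Id1 stood far above the other 4. On this scale (normalized reads per kilobase of annotated exon), Id3 had 3302 and 4049 at 24 h and 878 and 1275 at 0 h in replicates 1 and 2. Id1 had 1223 and 1384 at 24 h and 708 and 927 at 0 h. The libraries of Id3 and Id1 overlapped at 0 h and no longer did at 24 h. Below them at 24 h came Id2 (405 and 522), Atoh8 (242 and 361), Smad6 (65.7 and 77.1) and Id4 (32.6 and 39.9), none overlapping its neighbour in the order. At 0 h the order of these 4 was the same, with 115 and 164 for Id2, 48.7 and 101 for Atoh8, 28.0 and 42.1 for Smad6 and 9.85 and 22.1 for Id4, again without overlap between neighbours.

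A ratio of 2 genes within a library does not depend on its scaling. The ratio of Id2 to Id3 normalized reads had a median of 0.234 and stayed between 0.187 and 0.263 in all 18 libraries, a 1.40-fold range. Id3 over Id1 was 1.36 and 1.52 at 0 h, 2.68 and 2.50 at 4 h and 2.98 and 3.22 at 24 h. The libraries of 4 h and of 24 h lay above both of 0 h in that ratio. The ratio of Smad6 to Smad7, the other inhibitory SMAD, which also acts on TGF-beta receptors, was 0.0821 and 0.124 at 24 h and 0.0201 and 0.0314 at 0 h. Over all libraries it ran from 0.0169 to 0.124, with both 24 h libraries above both 0 h libraries.

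**Figure D3:**
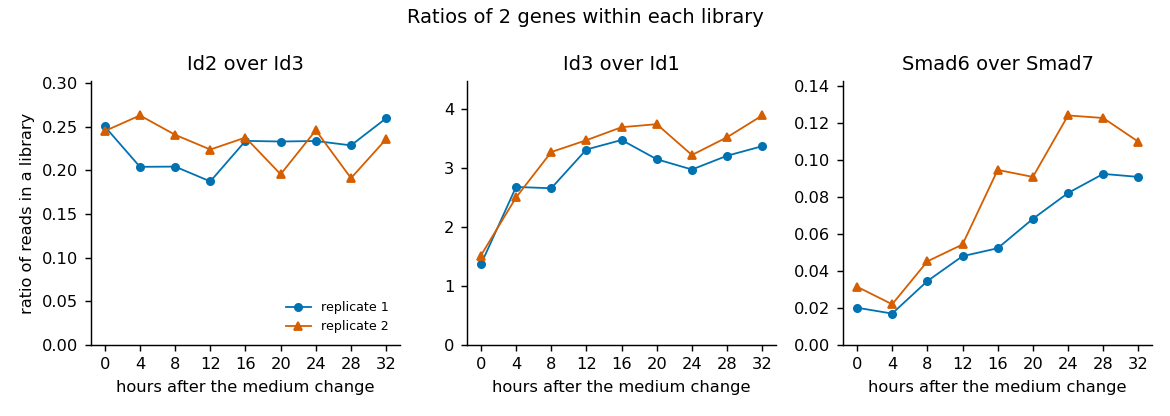
Ratios of the normalized reads of 2 genes within each library against hours after the medium change (points are libraries, by replicate; axes start at 0). Id2 over Id3 stays between 0.187 and 0.263 throughout, while Id3 over Id1 and Smad6 over Smad7 are higher at 24 h than at 0 h.

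Likeness was measured as the root mean square difference between profiles of 9 mean log2 values, each centred on its own mean, over 10952 genes with a mean of at least 50. The gene most like Id2 was Id3, and the gene most like Id3 was Id2, at 0.10 log2 units, against a spread of 0.60 and 0.63 for their own profiles. Next for both came Fign (0.15 from Id2 and 0.15 from Id3) and Ifit2 (0.16 and 0.15). Id1 lay nearest to Pttg1 (0.05), Cenpm (0.06) and D2Ertd750e (0.08), and the nearest of the other 5 genes to it, Smad6, ranked 1909 in likeness. Pttg1 averaged 1788 normalized reads at 20 h and 1176 at 0 h. For Smad6 the 3 nearest genes were Slc17a6 (0.11), Ptx3 (0.11) and Smad9 (0.13), for Id4 4931414P19Rik (0.09), Depdc1b (0.11) and Esco2 (0.12), and for Atoh8 Kcna4 (0.21), Adamts5 (0.22) and Txnip (0.22). These are descriptions over 9 time means, with no test.

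The 2 replicate series differed for most of these genes. In a fit with time and replicate together, 5 of the 6 were higher in replicate 2 than in replicate 1, where 20.0% of all tested genes were. The log2 difference was 0.53 ± 0.09 for Atoh8 (adjusted p = 8.55e-05, limma), 0.30 for Id2 (0.00137), 0.27 for Id3 (7.55e-06) and 0.14 for Id1 (0.00957). Smad6 differed by 0.15 ± 0.07 and did not pass (0.125). The call of Id4 (0.31 ± 0.10, adjusted p = 0.0193) was lost without 0 h replicate 2, 16 h replicate 1 or 16 h replicate 2 (0.0512, 0.0552 and 0.0560) and without the filter or the trend (0.0550 and 0.0681).

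At 0 h replicate 2 was higher for all 6 genes, by 1.31-fold (Id1) to 2.24-fold (Id4), with a median ratio of 1.48. At 28 h and 32 h the median ratio was 0.981 and 0.997, and 1 and 2 of the 6 genes were higher in replicate 2. The fold between 32 h and 0 h was accordingly smaller within replicate 2. Atoh8 was 2.91-fold higher at 32 h than at 0 h within replicate 2 and 5.81-fold within replicate 1. Id4 was 1.79-fold higher in replicate 2 and 4.04-fold in replicate 1. Both series had higher values at 32 h than at 0 h for all 6 genes. Whether the gap between replicates changed with time was not tested.

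**Figure D4:**
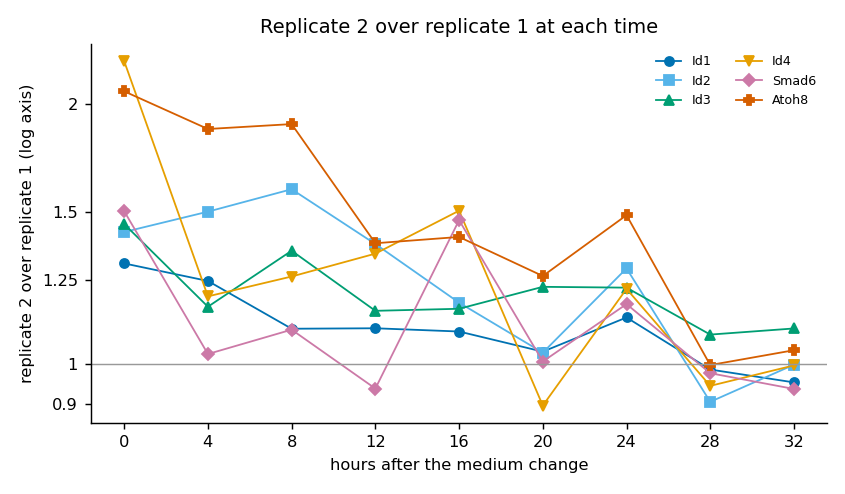
Ratio of replicate 2 to replicate 1 normalized reads (log axis) of each of the 6 genes against hours after the medium change. All 6 are above 1 at 0 h (1.31 to 2.24), and at 32 h they lie between 0.936 and 1.10.

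A list of 64 other genes of BMP signalling and of helix-loop-helix partners moved in both directions. The list too was chosen with earlier results of these data known, so its counts are descriptions. All 64 were in the table, 35 passed the filter, and 20 of these 35 passed the F test over times (52.0% of all tested genes did). At 24 h against 0 h, 7 of the 35 were higher and 15 lower, against 18.6% of all genes in each direction. Hey1 is among the 7 and among the 20. Its 0 h mean, 7.26, was below the filter's 10, so it entered these tests only through its later values. With libraries scaled to equal totals, 14 of the 35 were higher and 11 lower, where 43.7% of all tested genes were higher and 10.2% lower. The lower calls of Eng, Chrd, Bambi and Ski were lost in that scaling (limma adjusted p = 0.140, 0.124, 0.0990 and 0.0918). DESeq2 lost those of Eng and Bambi (0.147 and 0.0881). Of the 22 calls, those of Acvr2b, Eng, Chrd, Bmper, Bambi and Tcf3 were lost without one or another 0 h or 24 h library, with adjusted p then between 0.0551 and 0.297. The median log2 change of the 35 was -0.09, and that of all tested genes 0.01.

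Of the ligands, Gdf5 alone of 13 passed the filter on low values. It had 111 and 126 normalized reads at 24 h and 226 and 222 at 0 h, without overlap, and fell by 0.92 on the log2 scale (adjusted p = 0.00110, limma). At 28 h it had 160 and 195 and at 32 h 165 and 162, and neither time was called against 0 h. Gdf5 was called higher at 32 h than at 8 h, the time of its lowest mean (93.5). Bmp2, Bmp10, Gdf2 and Gdf6 were listed at 0 in every library. Bmp4, a main ligand of many tissues, did not pass 3.61 normalized reads in any library.

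Of 9 tested receptors and co-receptors, 2 were higher and 3 lower at 24 h than at 0 h (18.6% of all tested genes in each direction). The type I receptor Acvr1 had 1428 and 1432 normalized reads at 24 h and 3469.8 and 2979 at 0 h (log2 -1.17 ± 0.08, adjusted p = 5.40e-08). Both 24 h libraries lay below both 0 h libraries. The type I receptor Bmpr1a, named after its values were seen, had a log2 difference of 0.25 ± 0.13 (adjusted p = 0.160) that passed with the replicate block (0.000721), equal totals (0.00823) and quantile normalization (0.0495). The type II receptor Bmpr2 changed by -0.61 (1.65e-05), and the co-receptor Rgma by 0.42 (0.000518).

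The receptor-activated SMADs moved apart. Smad1 had 978 and 1011 normalized reads at 24 h and 1847 and 2069 at 0 h (log2 -0.97 ± 0.08, adjusted p = 4.06e-07, limma). Smad9 had 308 and 298 at 24 h and 78.6 and 173 at 0 h (log2 1.37 ± 0.30, adjusted p = 0.00269). Neither pair of groups overlapped, Smad1 being lower and Smad9 higher at 24 h, and Smad9 had the wider gap between its 0 h libraries. Smad5 had a log2 difference of 0.12 ± 0.07 that did not pass (0.226), but it did with equal totals (adjusted p = 0.00114) and with quantile normalization (0.0293).

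The 6 tested secreted antagonists, which bind BMPs or activins outside the cell, comprised 1 higher and 4 lower at 24 h (18.6% of all tested genes in each direction). Fst (follistatin) changed by -1.08 ± 0.11 (adjusted p = 2.53e-06) and Nbl1 by -1.11 ± 0.14 (1.95e-05). Fstl1, a secreted glycoprotein related to follistatin, had 32444 and 32131 normalized reads at 24 h and 45430.00 and 46589 at 0 h, a log2 change of -0.51 ± 0.10 (0.00102). Both 24 h libraries lay below both 0 h libraries.

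Among 7 intracellular or membrane inhibitors of the pathway, 1 was higher and 5 were lower at 24 h (18.6% of all tested genes in each direction). The lower calls of Bambi and Ski were lost with equal totals (above). Tob1, which binds SMADs, was the one that rose (1.04 ± 0.12, adjusted p = 8.64e-06). The ubiquitin ligases Smurf1 and Smurf2, which mark SMADs and receptors for degradation, changed by -0.59 (4.99e-06) and -0.61 (5.42e-06). Smad7, named here after its values were seen because it is the counterpart of Smad6, had 2377 and 1846 normalized reads at 24 h and 4142 and 3976 at 0 h (log2 -0.95 ± 0.19, adjusted p = 0.00126), without overlap.

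Of 6 other BMP-responsive genes listed, only Runx2 and Hey1 passed the filter, and they went opposite ways. Runx2, the bone transcription factor, had 1665 and 1693 normalized reads at 24 h and 3786 and 3501 at 0 h (log2 -1.12 ± 0.08, adjusted p = 9.74e-08, limma). Hey1, a transcriptional repressor also driven by Notch, had 29.2 and 24.5 at 24 h and 9.03 and 5.49 at 0 h (log2 1.78 ± 0.33, adjusted p = 0.000762). Its 0 h values rest on 10 and 4 raw reads and lie below the filter's mean of 10. Hey1 thus passed the filter only through its later, higher values. Its call is therefore no support for a rise, and the size of its change is uncertain. The groups did not overlap for either gene.

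Of the helix-loop-helix partners and relatives, 6 were tested and 1 was called at 24 h against 0 h (37.2% of all tested genes were). This was the E protein Tcf3, with a log2 change of 0.17 ± 0.06 (adjusted p = 0.0334), a call lost without 0 h replicate 1 (0.205) or 24 h replicate 1 (0.297). Twist1 and Twist2, mesenchymal factors that pair with E proteins, did not pass at 24 h, with log2 differences of 0.11 ± 0.15 (0.633) and -0.06 ± 0.11 (0.720). Twist2 did pass the F test over times (adjusted p = 0.0196, limma), though not without 12 h replicate 1. Its log2 change at 8 h from 0 h was -0.46 (adjusted p = 0.00630, limma), and -0.33 without 8 h replicate 2, where the call was lost. The 2 remaining E proteins, Tcf4 and Tcf12, were named after their values were seen because ID proteins bind them. The log2 difference of Tcf4 was 0.29 ± 0.11 (adjusted p = 0.0573, limma) and that of Tcf12 -0.09 ± 0.08 (0.439). For Tcf4 the adjusted p was 0.00416 with the replicate block, 0.00173 with equal totals and 0.00946 with quantile normalization. It was 0.0496 by edgeR and 0.0457 by DESeq2. Tcf4 also passed without 0 h replicate 2 or without any one library of 4 h or 8 h.

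**Figure D5:**
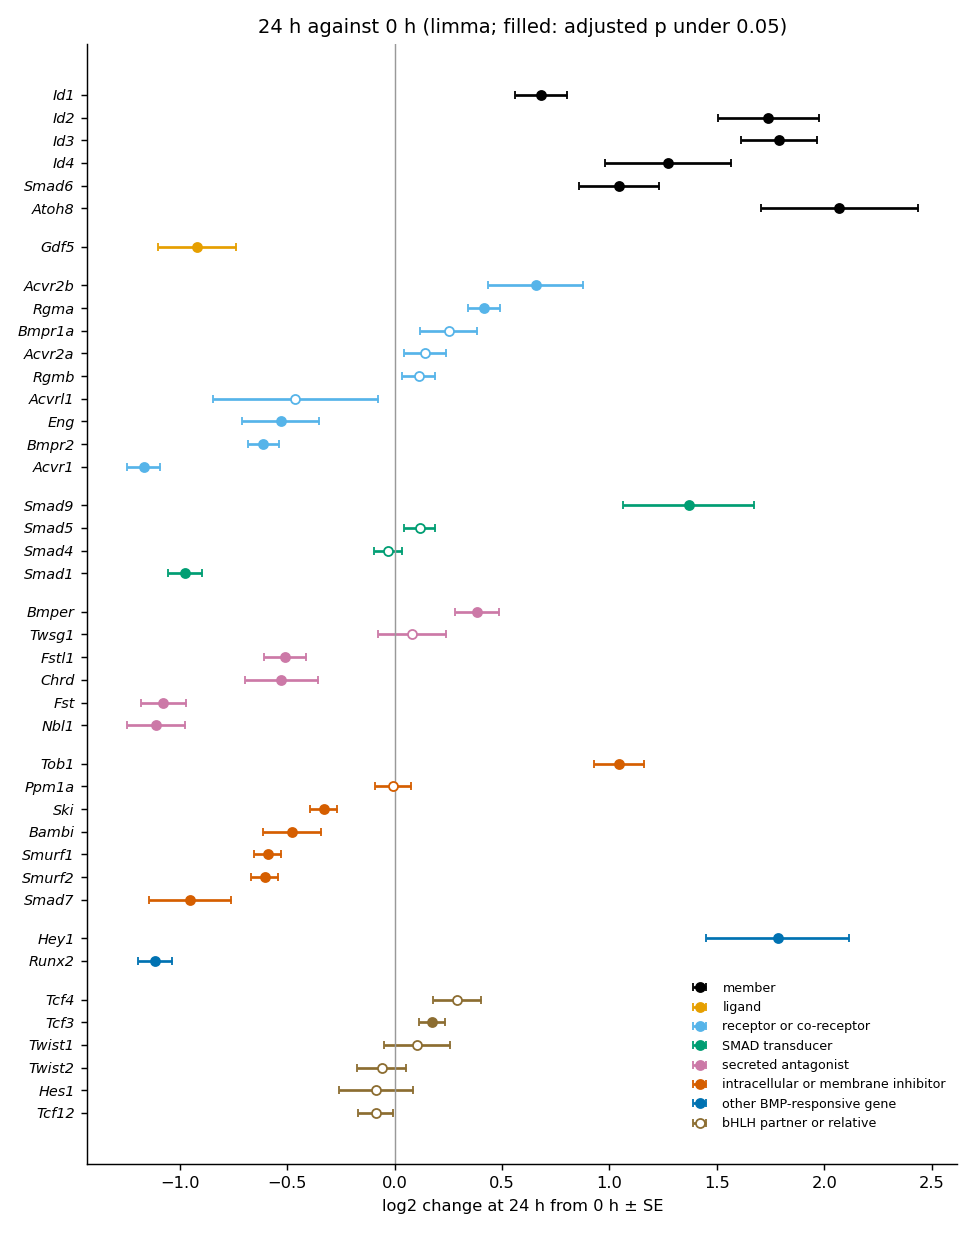
Log2 change at 24 h from 0 h (horizontal axis, ± SE of the limma fit) of the 6 genes and of the 35 tested pathway genes, by role; filled points have an adjusted p under 0.05. The 6 genes lie between 0.68 and 2.07, while 7 of the 35 are called higher and 15 lower. Hey1, among the 7, passed the filter only through its later values.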

How the data were processed

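RNA-seq of 18 NIH3T3 libraries (9 times, 2 replicates) was analysed from 1 table of 21937 genes. The deposited values, of the unit signal, are normalized reads: reads per gene divided by 1 factor per library. The submitters' processing notes name TopHat, HTSeq, DESeq and the mm9 build without versions or roles; the annotation and the strand setting are not given in the sources used here, so reads from overlapping antisense transcripts cannot be told apart. Dividing by the smallest step gave whole reads for 100% of values (within 0.02 reads); the authors' factors ran from 0.728 to 1.16 and differ by at most 8.49e-07% from median-of-ratios factors, and the libraries held 25.4 to 38.9 M reads. Because the deposited unit is not a count, limma 3.58.1 (eBayes with trend, R 4.3.3) on log2(value + 1) was the main test, for 12393 genes with a mean of at least 10, with Benjamini-Hochberg adjustment over all of them and a threshold of 0.05. A fold given with a limma test is 2 to the power of its difference in mean log2(value + 1). It can differ from the ratio of mean reads in either direction. For Id4 at 20 h against 0 h the fold was 2.82 and the ratio of means 2.65. The added 1 by itself makes the changes of low genes smaller. Folds within 1 replicate are plain ratios of normalized reads. Tests were a moderated F over 9 times, contrasts against 0 h, between neighbouring times and between days, a 24 h cosine and sine, a linear term, and replicate 2 against replicate 1. On the recovered reads, edgeR 4.0.16 (quasi-likelihood, TMM) and DESeq2 1.42.0 were alternatives. The other alternatives were pseudocounts of 0.5 and 4, no filter, a mean of at least 50, equal totals, quantile normalization, no variance trend, periods of 22 and 26 h, each replicate alone, the replicate block and leaving out each library. Between any 2 times, libraries with the same number deviated together (correlation above 0.1 in 36 of 36 pairs, 0.230 to 0.502). The labels state no shared source, so a pairing by number was inferred from the data alone. The main fit did not use it. Only the replicate block and the test of replicate 2 against replicate 1 held a term for replicate. Exon lengths came from GENCODE M21 and promoters from RefSeq. Simulated independent reads without a replicate shift were used to try limma at 4 h against 0 h, on the rhythm and on the linear term. They were also used to try edgeR at 4 h against 0 h. DESeq2, the F test, the replicate test and the replicate block were not tried in that way. The 6 genes, the pathway list and the markers were chosen with earlier results of these data known. One further gene of the pathway list is not reported here and was left out of its counts. Pathway genes named are the 3 per role with the smallest F test p, and those most like a member the 3 nearest by profile.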

Additional observations from a re-analysis of the deposited data

How the results depend on the processing

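No call of a member changed direction in any of the alternatives. Over single members, comparisons and settings, 3483 values stayed on their side of 0.05, 50 lost their call and 22 gained one. Many of the 3483 had little room to move. Leaving out a library of another time leaves a difference between 2 times unchanged, and many later steps were far from 0.05. Smad6 at 8 h against 4 h lost its call in 14 of 28 alternatives and Id4 at 4 h against 0 h in 8 of 28. Without a library in turn, 5 to 6 of the 6 genes passed the F test, 31 to 41 of the 48 comparisons with 0 h were called (39 with all libraries, 31 without 0 h replicate 1), 12 to 16 of 18 between days (16) and 4 to 5 of 6 between replicates (5). The 3 calls between neighbouring times ran from 0 to 3 in that way, and were 1 without the filter, 1 without the variance trend, 1 by edgeR and 9 with the replicate block. The rhythm test went from 0 genes to 2 with a linear term; the cause was not tested. The pathway list gave 118 to 134 of 280 calls against 0 h without a library and 124 to 167 under the other settings (133), and 19 to 30 of 35 by the F test (20).

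Among all tested genes, the count at 4 h against 0 h was 2664, and 4662 with the replicate block, 971 without 0 h replicate 2 and 1459 without 4 h replicate 1. At 8 h against 0 h it was 4263, and 2571 without 0 h replicate 2. At 8 h against 4 h it was 1395, with a range of 572 to 3043, and at the 6 later steps it was 0 to 62, with a range of 0 to 479. At 28 h against 4 h it was 5126, and 3409 without 28 h replicate 2. At 32 h against 8 h it was 3422, with a range of 1554 to 5241. The rhythm test passed 46 genes, with a range of 1 to 2108. Apart from the calls given beside their results, the replicate block changed no call of a member. Id4 and Smad6 rest on few reads (42 to 189 and 58 to 255 per library), which limits their precision. Hey1 of the pathway list had only 10 and 4 raw reads at 0 h. With 2 libraries a time and no unpulsed cells, a change after the pulse and a change with time in culture cannot be told apart.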
